A study of Arabidopsis thaliana with 8 samples.

Results

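BCAT4 (AT3G19710), UGT74B1 (AT1G24100) and AT2G04400 are 3 Arabidopsis thaliana genes of glucosinolate and tryptophan synthesis. Each was measured by 1 probe set that the array's annotation assigns to that gene alone, and they were chosen by name among 13286 loci with such a probe set. They and the pathway lists used below were chosen with earlier results of these data known. Shares of all probe sets set beside them are therefore a description and no independent test. Rosette leaves of 5-week-old plants were compared in 4 groups of 2 arrays each. The groups were control leaves and systemic leaves of the wild type (ecotype Col-0, labelled wt), and control leaves and systemic leaves of the SALK insertion line dTLec1-1, which is also in Col-0. All plants had grown in short days, and in both genotypes some rosette leaves were crushed with tweezers across the midvein. RNA was taken 2 h after wounding. Systemic leaves are, in the usual sense of the term, the unwounded leaves of a wounded plant, and it is not stated if the control leaves came from other, unwounded plants. The labels give 1 insertion line and do not name the gene it disrupts, so its transcript was not checked. They do not say how many plants a sample pools or whether replicates are separate plants, so p-values here reflect the spread among these samples alone, and that spread may be technical.

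Glucosinolates are sulfur-rich thioglucosides that plants of the cabbage family store in their leaves and that myrosinases split into toxic products when tissue is damaged. Aliphatic glucosinolates of Arabidopsis start from methionine whose side chain is first lengthened, and indole glucosinolates start from tryptophan. Both kinds then pass through a shared core pathway that builds the thiohydroximate, adds glucose and adds sulfate. BCAT4 is the aminotransferase that removes the amino group of methionine at the first step of side chain elongation. UGT74B1 is the glucosyltransferase of the core pathway that adds glucose to the thiohydroximate. AT2G04400 encodes an indole-3-glycerol phosphate synthase, which closes the indole ring in the plastid pathway to tryptophan. Jasmonate, a hormone that rises in wounded plants, is known to raise transcripts of glucosinolate and tryptophan synthesis in Arabidopsis leaves.

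The values were log2 expression values that the authors had normalized between arrays, so 1 unit is a doubling and a shift shared by most probe sets would not show. Array medians lay between 5.82 and 5.87, and across probe sets the r of the 2 arrays in a group was 0.992 to 0.996, where probe sets do not count as independent. At all 22746 probe sets tested, the mean over the 4 replicate 1 arrays equalled the mean over the 4 replicate 2 arrays within 0.001, so a difference between the replicate numbers had already been taken out of the values. The main model counts 4 residual degrees of freedom without allowing for that, which makes its p-values too small. Entering the replicate number as a block allows for it, and the blocked value is given beside each call that it changes. Of the leaf mesophyll markers, RCA (Rubisco activase) and LHCB4.2 (a light-harvesting protein) were measured by name, and their group means lay between 13.6 and 13.9 in all 4 groups. FMA, a guard cell and myrosin cell factor, had group means between 6.21 and 6.62. It was highest in wild-type systemic leaves, as the 3 genes were, with a log2 response of 0.41 ± 0.14 (SE from 2 arrays in each group) in the wild type and −0.062 ± 0.14 in dTLec1-1, and the difference of these responses was −0.48 ± 0.19 (limma adjusted p 0.429). Its part in the results was not tested. The difference between systemic and control leaves did not pass for any of these 3 markers in either genotype (limma adjusted p between 0.109 and 0.866). The root hair, phloem, xylem and myrosinase markers have no value by name here, so the part of those cells in the results was not tested. In whole leaves, fewer cells of a type and less RNA per cell cannot be told apart.

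BCAT4 was highest in wild-type systemic leaves and lowest in dTLec1-1 control leaves. Its log2 values were 9.73 and 9.22 in wild-type control leaves, 10.51 and 10.73 in wild-type systemic leaves, 9.02 and 8.86 in dTLec1-1 control leaves, and 9.64 and 10.10 in dTLec1-1 systemic leaves, replicate 1 first. Both systemic arrays lay above both control arrays in each genotype. In both leaf types the dTLec1-1 arrays lay below the wild-type arrays. The order of the group means was 10.62 ± 0.16 (SD, n = 2) in wild-type systemic, 9.87 ± 0.32 in dTLec1-1 systemic, 9.48 ± 0.36 in wild-type control and 8.94 ± 0.12 in dTLec1-1 control leaves. The neighbours in the middle of that order, dTLec1-1 systemic and wild-type control leaves, overlapped.

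UGT74B1 stood apart in 1 group only, the wild-type systemic leaves. Its log2 values were 7.95 and 7.66 in wild-type control leaves, 8.45 and 8.83 in wild-type systemic leaves, 7.86 and 7.76 in dTLec1-1 control leaves, and 7.88 and 7.88 in dTLec1-1 systemic leaves. The 6 arrays of the other 3 groups spanned 7.66 to 7.95, the range of the wild-type control leaves alone. The group means were 8.64 ± 0.27 (SD, n = 2) in wild-type systemic leaves, 7.88 ± 0.0021 in dTLec1-1 systemic leaves, 7.81 ± 0.067 in dTLec1-1 control leaves and 7.81 ± 0.20 in wild-type control leaves. The last 3 could not be put in order, because the wild-type control arrays lay on both sides of the 4 dTLec1-1 arrays.

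AT2G04400 had an intermediate group mean in dTLec1-1 systemic leaves. Its log2 values were 7.97 and 7.65 in wild-type control leaves, 8.92 and 9.03 in wild-type systemic leaves, 7.94 and 7.69 in dTLec1-1 control leaves, and 8.20 and 8.67 in dTLec1-1 systemic leaves. The group means were 8.98 ± 0.080 (SD, n = 2) in wild-type systemic, 8.43 ± 0.33 in dTLec1-1 systemic, 7.82 ± 0.18 in dTLec1-1 control and 7.81 ± 0.23 in wild-type control leaves. The control arrays of the genotypes overlapped, while the dTLec1-1 systemic arrays lay above all 4 control arrays and below both wild-type systemic arrays. The share of all probe sets with this order was not counted.

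**Figure D1:**
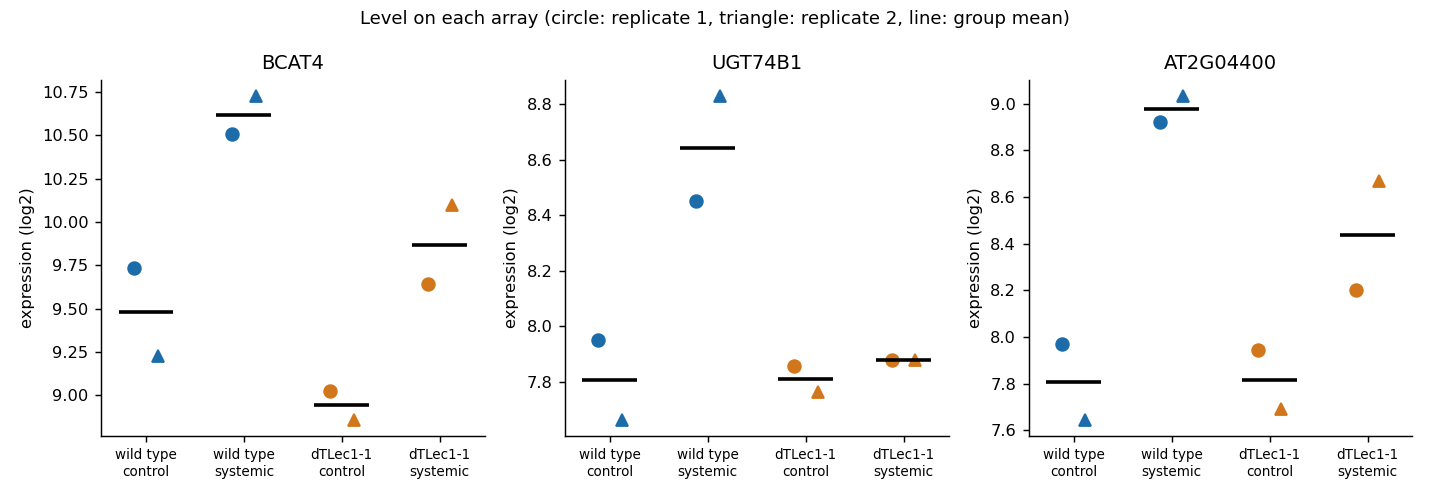
Log2 expression of BCAT4, UGT74B1 and AT2G04400 on each of the 8 arrays (vertical axis, log2, with its own range in each panel) by genotype and leaf type (horizontal axis), with blue for the wild type, orange for dTLec1-1, and a line at the mean of the 2 arrays. All 3 genes are highest in wild-type systemic leaves, and in dTLec1-1 systemic leaves BCAT4 and AT2G04400 lie above the dTLec1-1 control leaves by more than UGT74B1 does.

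In the wild type, the question was how systemic leaves differed from control leaves. All 3 genes rose. BCAT4 rose 2.20-fold, or 1.14 ± 0.21 in log2 units (SE from 2 arrays in each group, 95% interval 0.65 to 1.62). AT2G04400 rose 2.25-fold, by 1.17 ± 0.18 (0.75 to 1.59), and UGT74B1 rose 1.78-fold, by 0.83 ± 0.14 (0.50 to 1.17). The adjusted p was 0.0144, 0.00829 and 0.0122 in that order, in limma's moderated test across all probe sets with Benjamini-Hochberg adjustment. So 3 of 3 genes passed the threshold of 0.05, where 11.9% of all probe sets passed and 5.91% passed as higher.

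These increases lay in the upper tail of the array, for genes chosen with earlier results of these data known. Of all probe sets, 1.92% had a wild-type log2 fold change at least as high as that of BCAT4, 1.85% at least as high as that of AT2G04400 and 2.88% at least as high as that of UGT74B1. The median of the 3 was 1.14, against −0.021 over all probe sets. The systemic arrays lay above the control arrays at all 3 genes, as they did at 22.4% of all probe sets. With the replicate block the 3 genes still passed, with limma adjusted p of 0.0242, 0.0146 and 0.0246 for BCAT4, AT2G04400 and UGT74B1, where 7.02% of all probe sets passed.

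Compared within a replicate number, the wild-type increase was larger in replicate 2 at each gene. It was 0.77 and 1.50 for BCAT4, 0.95 and 1.39 for AT2G04400 and 0.50 and 1.17 for UGT74B1, replicate 1 first, on the log2 scale. The same order held for the median of 1479 probe sets that passed as higher in the response averaged over both genotypes, 0.60 in replicate 1 and 0.83 in replicate 2. That set was chosen from these same arrays, includes the 3 genes and need not have risen in each genotype. Without wild-type systemic replicate 2 none of the 3 passed, with log2 fold changes of 1.03, 1.11 and 0.65 for BCAT4, AT2G04400 and UGT74B1 and limma adjusted p of 0.0961, 0.0607 and 0.0651. In that fit 3.54% of all probe sets passed, against 11.9% with all arrays. Without any other single array all 3 passed.

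In dTLec1-1 the same comparison gave the highest value at BCAT4 and the lowest at UGT74B1. The intervals of these 2 genes did not overlap, while that of AT2G04400 overlapped both. The difference between the genes was not tested. BCAT4 had a log2 fold change of 0.93 ± 0.21 (SE from 2 arrays in each group, 95% interval 0.44 to 1.41), or 1.90-fold. AT2G04400 had 0.62 ± 0.18 (0.20 to 1.04), or 1.53-fold. UGT74B1 had 0.069 ± 0.14 (−0.27 to 0.41), or 1.05-fold. None of the 3 passed the threshold in limma's test, with adjusted p of 0.103, 0.164 and 0.855. The share of all probe sets that passed was 0.668%, with 0.488% higher. Before adjustment, 2 of the 3 genes had a limma p under 0.05, BCAT4 (0.00263) and AT2G04400 (0.0103), as did 16.5% of all probe sets.

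Set against the other probe sets of the same comparison, 1.03% had a dTLec1-1 log2 fold change at least as high as that of BCAT4, 2.08% at least as high as that of AT2G04400 and 30.4% at least as high as that of UGT74B1. The systemic arrays lay above the control arrays at all 3 genes, as at 21.7% of all probe sets, but at UGT74B1 by a gap of 0.020 between the nearest arrays, against 0.62 at BCAT4 and 0.26 at AT2G04400. Within replicates 1 and 2 the difference was 0.62 and 1.24 for BCAT4, 0.26 and 0.98 for AT2G04400, and 0.020 and 0.12 for UGT74B1. As in the wild type, replicate 2 gave the larger value at each gene, and the 1479 raised probe sets had dTLec1-1 medians of 0.28 and 0.50. How many of all probe sets had a larger value in replicate 2 was not counted in either genotype.

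The BCAT4 value in dTLec1-1 lay near the threshold, and its call depended on which arrays were used to estimate the spread. With the arrays of the 2 dTLec1-1 groups alone the limma adjusted p was 0.044, where 1.42% of all probe sets passed. Without either wild-type control array it was 0.0399, where 1.71% passed, and the log2 fold change was the same in both. With the replicate block it was 0.205, where 0.0703% of all probe sets passed.

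Averaged over both genotypes, systemic leaves exceeded control leaves at all 3 genes. The mean log2 difference was 1.03 ± 0.15 (SE from 4 arrays per leaf type) for BCAT4, 0.89 ± 0.13 for AT2G04400 and 0.45 ± 0.10 for UGT74B1, with limma adjusted p of 0.00546, 0.00554 and 0.0277. All 3 passed, where 14.1% of all probe sets did. With the replicate block BCAT4 (0.00905) and AT2G04400 (0.00971) passed and UGT74B1 (0.0538) did not, where 8.19% of all probe sets passed. BCAT4 and AT2G04400 also passed with any single array left out. UGT74B1 passed in 2 of these 8 fits, without wild-type control replicate 1 and without wild-type systemic replicate 1, and otherwise had a limma adjusted p between 0.0547 and 0.0926. The share of all probe sets that passed in the 8 fits lay between 6.93% and 15.7%.

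**Figure D2:**
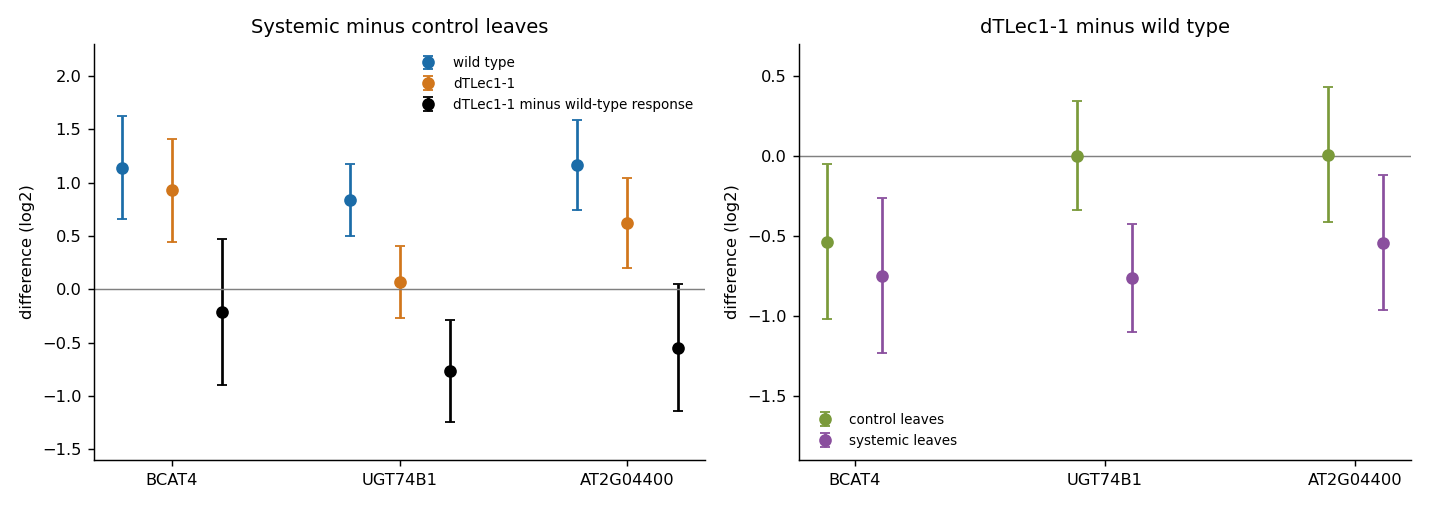
Log2 differences with 95% intervals from limma for the 3 genes (horizontal axis), with systemic minus control leaves in each genotype and the difference of these responses on the left, and dTLec1-1 minus wild type in each leaf type on the right. The wild-type intervals lie above 0 for all 3 genes, the dTLec1-1 interval of UGT74B1 runs from −0.27 to 0.41, and all 3 intervals for systemic leaves on the right lie below 0.

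The direct test of the responses, dTLec1-1 minus wild type, asked whether the genes responded differently in the insertion line. UGT74B1 had a difference of −0.77 ± 0.20 on the log2 scale (SE from 2 arrays in each group, 95% interval −1.24 to −0.29), with an unadjusted p of 0.00675 and an adjusted p of 0.268 in limma. AT2G04400 had −0.55 ± 0.25 (−1.15 to 0.046, limma adjusted p 0.478). BCAT4 had −0.21 ± 0.29 (−0.90 to 0.47, limma adjusted p 0.835), an interval that holds both no difference and a loss of most of its wild-type increase of 1.14. None of the 3 passed, where 0.00440% of all probe sets passed. Before adjustment, 1 of the 3 had a limma p under 0.05, as did 11.2% of all probe sets.

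Within the replicate numbers the differences were −0.48 and −1.05 for UGT74B1, −0.69 and −0.41 for AT2G04400, and −0.16 and −0.27 for BCAT4, replicate 1 first. How many of all probe sets had a negative difference in both replicates was not counted. Of all probe sets, 1.43% had a difference at least as low as that of UGT74B1, 2.94% as that of AT2G04400 and 15.0% as that of BCAT4. The BCAT4 value changed sign without wild-type control replicate 2 (0.044) and without dTLec1-1 systemic replicate 1 (0.016). Whether the genes differ from each other in this difference of responses was not tested.

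**Figure D3:**
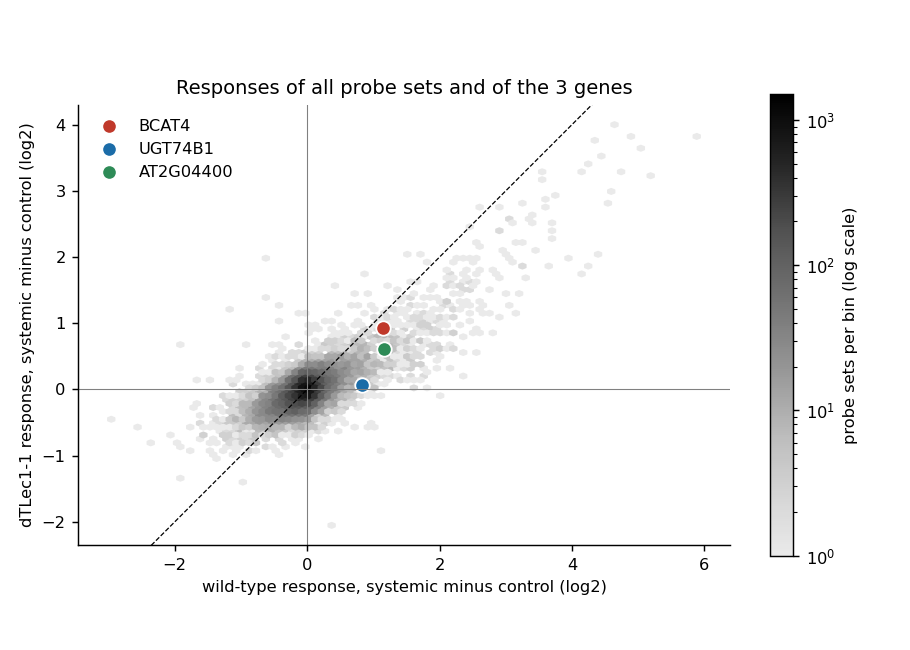
The response of systemic leaves in dTLec1-1 (vertical axis, log2) against that in the wild type (horizontal axis, log2) for all 22746 probe sets as grey bins, darker where more probe sets fall, with the 3 genes as coloured points and a dashed line where both responses are equal. All 3 genes lie to the right of 0 and below the dashed line, with BCAT4 nearest to the line and UGT74B1 at 0.069 on the vertical axis.

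The genotypes were next compared within each leaf type. In control leaves UGT74B1 and AT2G04400 had nearly the same means in both genotypes, with log2 differences of 0.0028 ± 0.14 (SE from 2 arrays in each group, 95% interval −0.34 to 0.34) and 0.0082 ± 0.18 (−0.41 to 0.43). BCAT4 was 1.45-fold lower in dTLec1-1 as a mean, with a log2 difference of −0.54 ± 0.21 (−1.02 to −0.053). It did not pass over all probe sets (limma p 0.0342, adjusted p 0.501), and neither did any other probe set, so 0 of 3 genes compares with 0% of all. At an unadjusted p under 0.05, BCAT4 was the 1 of 3 to pass, as did 9.25% of all probe sets. Its dTLec1-1 arrays lay below the wild-type arrays by at least 0.199, as the dTLec1-1 arrays lay below at 17.3% of all probe sets, and 0.747% of all probe sets had a difference at least as low.

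In systemic leaves all 3 genes had lower means in dTLec1-1. UGT74B1 was 1.70-fold lower (−0.76 ± 0.14 in log2 units, SE from 2 arrays in each group, 95% interval −1.10 to −0.42), and was the 1 of 3 genes to pass (limma adjusted p 0.0341), where 5.53% of all probe sets passed and 3.27% passed as lower. BCAT4 had −0.75 ± 0.21 (−1.23 to −0.26, limma adjusted p 0.086) and AT2G04400 had −0.54 ± 0.18 (−0.96 to −0.12, limma adjusted p 0.129). The dTLec1-1 arrays lay below the wild-type arrays at all 3 genes, as at 24.0% of all probe sets. This comparison shares the wild-type systemic arrays with the wild-type response and the dTLec1-1 systemic arrays with the dTLec1-1 response.

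The UGT74B1 call rested on the estimate of the spread. With the replicate block its limma adjusted p was 0.0792, where 0.936% of all probe sets passed. It passed without either wild-type control array, and with any of the other 6 arrays left out the adjusted p lay between 0.054 and 0.179, at log2 differences between −0.95 and −0.57. The share of all probe sets that passed was 6.89% without a wild-type control array and between 0.0132% and 3.13% in the other 6 fits. BCAT4, in turn, passed without either wild-type control array (limma adjusted p 0.0365), which leaves its difference as it was. Within replicates 1 and 2 the systemic leaf difference was −0.58 and −0.95 for UGT74B1, −0.86 and −0.63 for BCAT4, and −0.72 and −0.37 for AT2G04400.

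The rest of the pathway was followed only in part, through 9 lists of 105 genes. Of these, 16 had a probe set annotated to that gene alone and 13 were not among the 3 genes. BCAT4 was the only gene measured of 9 for chain elongation. Measured by name were 3 of 18 core structure genes, 2 of 12 regulators (MYC3 and MYC4) and 3 of 14 tryptophan synthesis genes. Most listed genes thus have no value here. In wild-type systemic leaves 5 of the 13 passed, 3 higher and 2 lower, where 5.91% of all probe sets passed as higher and 6.03% as lower. GTR1 (AT3G47960), a plasma membrane importer of glucosinolates, rose 4.00-fold, or 2.00 ± 0.20 in log2 units (SE from 2 arrays in each group, limma adjusted p 0.00222). AT2G31790, known as UGT74C1 and like UGT74B1 a glucosyltransferase linked to glucosinolate synthesis, rose 1.46-fold (0.55 ± 0.14, limma adjusted p 0.0472). AT1G22410, a synthase of the first step of the shikimate pathway that feeds tryptophan synthesis, rose 1.35-fold (0.43 ± 0.098, limma adjusted p 0.0334). AOP1 (AT4G03070), a dioxygenase gene of the glucosinolate side chain locus, fell 1.83-fold and AT4G02610, a homologue of the tryptophan synthase alpha subunit that releases indole, fell 1.76-fold (limma adjusted p 0.00718 and 0.0134).

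With the replicate block GTR1, AOP1 and AT4G02610 passed, 3 of 13, where 7.02% of all probe sets did, and AT2G31790 (limma adjusted p 0.0876) and AT1G22410 (0.0862) did not. GTR1 and AOP1 also passed with any single array left out, while AT4G02610 did not pass without either wild-type systemic array (0.0632 without replicate 1 and 0.0804 without replicate 2). AT1G22410 passed in 3 of the 8 fits with an array left out, and its log2 fold change over the 8 ran from 0.324 to 0.533. The fits in which it did not pass included those without either wild-type systemic array or wild-type control replicate 1. AT2G31790 did not pass without any 1 of those 3 arrays or without either dTLec1-1 systemic array (between 0.0605 and 0.23).

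The other 8 measured genes did not pass in the wild type. AT2G25450, the dioxygenase GSL-OH that hydroxylates alkenyl glucosinolates, had a log2 fold change of 1.56 ± 0.51 (limma adjusted p 0.106), and its wild-type control arrays lay far apart at 9.46 and 7.85. Without wild-type control replicate 1 its value was 2.36, with a limma adjusted p of 0.00696. GTR2, the other glucosinolate importer, had 0.56 ± 0.16 (limma adjusted p 0.0711), and 0.0371 without wild-type systemic replicate 1. GSTU20, a glutathione transferase, had 0.44 ± 0.26 (limma adjusted p 0.373), with 0.77 and 0.097 within replicates 1 and 2. APS3, an ATP sulfurylase of sulfate activation, had 0.40 ± 0.18 (limma adjusted p 0.219), with 0.82 and −0.014. AOP3 (0.020), the transcription factors MYC3 (−0.030) and MYC4 (−0.21) and AT5G48220 (−0.038), the second indole-3-glycerol phosphate synthase-like gene, lay near 0 or below. The AOP3 group means, 4.97 to 5.16, and the AOP1 mean in wild-type systemic leaves, 5.36, lay below the lowest array median of 5.82. Whether these 2 genes were detected at such levels was not tested. The median of the 13 was 0.40, against −0.021 over all probe sets.

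In dTLec1-1 no gene of the 13 passed in limma, where 0.668% of all probe sets did. Before adjustment 5 of 13 had a limma p under 0.05, against 16.5% of all probe sets, and with the replicate block 2 of 13 did, GTR1 and AT2G25450, against 10.9%. Their median response on the log2 scale was −0.11 over the 13, against −0.0098 over all probe sets. GTR1 had 0.63 ± 0.20 (SE from 2 arrays in each group, limma adjusted p 0.193) and AT2G25450 had 1.65 ± 0.51 (0.185), which passed with the dTLec1-1 arrays alone (limma adjusted p 0.0211) and without either wild-type control array (0.0406). AOP1 and AT4G02610 had −0.34 and −0.33, and AT2G31790 had −0.11. In systemic leaves GTR1 was 2.84-fold lower in dTLec1-1 (limma adjusted p 0.0154), AT2G31790 1.55-fold lower (0.0479) and AOP1 1.51-fold higher (0.046). These are 3 of 13, where 5.53% of all probe sets passed and 3.27% as lower. With the replicate block only GTR1 passed among these 13 genes (limma adjusted p 0.0348), where 0.936% of all probe sets did. Without either systemic array of either genotype GTR1 did not pass (limma adjusted p between 0.0527 and 0.125), nor did AT2G31790 (0.123 to 0.262) or AOP1 (0.0867 to 0.196), and in those 4 fits between 0.0132% and 1.01% of all probe sets passed.

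GTR1 was highest in wild-type systemic leaves, as the 3 genes were. Its log2 values were 6.85 and 7.06 in wild-type control leaves, 8.80 and 9.11 in wild-type systemic leaves, 7.12 and 6.51 in dTLec1-1 control leaves, and 7.40 and 7.49 in dTLec1-1 systemic leaves. The dTLec1-1 systemic arrays lay above all 4 control arrays and below both wild-type systemic arrays, as at AT2G04400, an order whose share over all probe sets was not counted. The difference of the GTR1 responses was −1.37 ± 0.29 (SE from 2 arrays in each group, limma p 0.00189, adjusted p 0.187), and it did not pass.

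**Figure D4:**
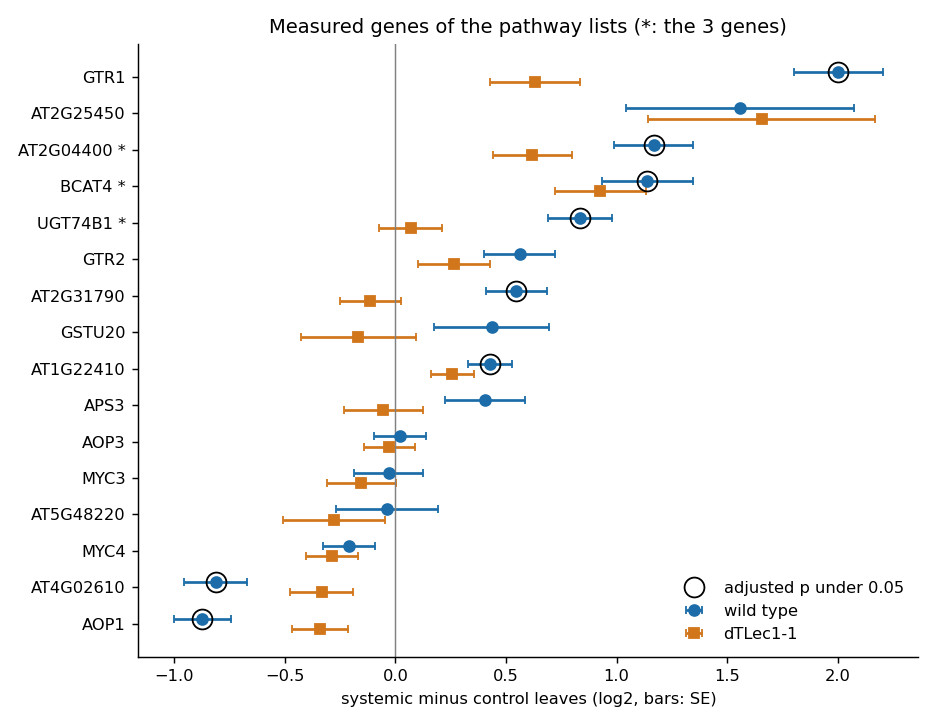
Log2 difference of systemic minus control leaves (horizontal axis, bars ± SE) for the 16 measured genes of the pathway lists (vertical axis, ordered by the wild-type value), in the wild type (blue circles) and dTLec1-1 (orange squares), with rings at wild-type values past an adjusted p of 0.05. The 8 ringed genes are 6 that rose, GTR1, AT2G04400, BCAT4, UGT74B1, AT2G31790 and AT1G22410, and 2 that fell, AT4G02610 and AOP1, and no dTLec1-1 value passed.

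Over the 8 arrays BCAT4 and AT2G04400 had the most alike patterns of the 3, with a Pearson r of 0.947. The r was 0.857 between BCAT4 and UGT74B1 and 0.856 between UGT74B1 and AT2G04400. These values describe 8 arrays that fall into 4 groups and share the authors' normalization, so the group differences above set most of them. Among the other pathway genes GTR1 had the highest r to each, with 0.898 to BCAT4, 0.929 to UGT74B1 and 0.917 to AT2G04400. GTR2 had 0.884, 0.912 and 0.901 in the same order. Of the genes that ran the other way, AOP1 had −0.886, −0.846 and −0.921, MYC4 had −0.948, −0.757 and −0.836, and AT4G02610 had −0.834, −0.832 and −0.841, in the same order. AOP3 (−0.469, −0.493 and −0.301) and AT5G48220 (−0.376, −0.143 and −0.357) had weaker negative values.

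The named genes most like each of the 3 were taken as the highest r over the 8 arrays among 1294 probe sets with a single gene and an SD of at least 0.3. For BCAT4 they were AT1G52000, which encodes a jacalin-related lectin (r = 0.995), the cellulose synthase-like gene CSLD2 (0.991), AT5G12420 (0.989), AT3G53960 (0.988) and the strictosidine synthase-like gene AT3G51450 (0.987). Their log2 responses lay between 0.62 and 3.58 in the wild type and between 0.49 and 2.88 in dTLec1-1. For AT2G04400 they were AT4G36010, AT1G10410, AT5G54300, AT2G37110 and AT4G36640, with r between 0.990 and 0.995, wild-type responses between 0.85 and 3.07 and dTLec1-1 responses between 0.46 and 1.94. For UGT74B1 they were the trichome birefringence-like gene TBL26 (r = 0.990), HL (AT5G54390, 0.982), AT1G73920 (0.979), the MATE transporter gene AT1G66760 (0.978) and the vacuolar invertase gene AT1G62660 (0.978). Their wild-type responses lay between 0.79 and 2.38, and their dTLec1-1 responses between −0.086 and 0.29. These genes were chosen for their likeness, so the values are a description.

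**Figure D5:**
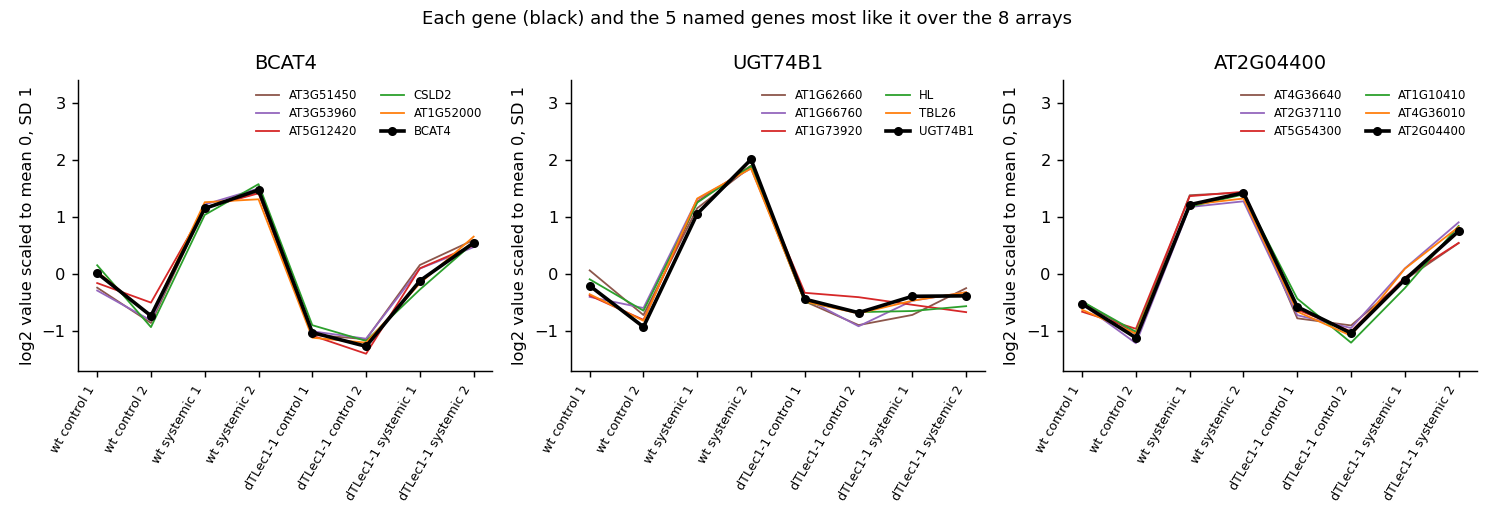
Log2 values of BCAT4, UGT74B1 and AT2G04400 (black) and of the 5 named genes most like each (colours), each scaled to a mean of 0 and an SD of 1 over the 8 arrays (vertical axis), for the arrays of the 4 groups (horizontal axis, numbers are replicates, and lines only join the values of a gene). The genes drawn with UGT74B1 are high on the 2 wild-type systemic arrays alone, while those drawn with BCAT4 and AT2G04400 also lie higher on the dTLec1-1 systemic than on the dTLec1-1 control arrays.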

How the data were processed

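RNA of each sample was hybridised to 1 Affymetrix ATH1 array, a chip with probes near the 3′ ends of transcripts, which related genes can share. Each deposited value is the log2 expression of a probe set after the authors' normalization across the arrays. RMA and Partek are named per the submitters' processing notes, with versions and settings not given in the sources used here. The log2 scale was read from the values (3.24 to 14.28). Arrays have no read depth, and the 2 arrays per group limit the precision.

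The 64 array controls among 22810 probe sets were not tested. Names come from the platform annotation, brought up to date through gene identifiers in a TAIR10.1 table. That annotation gives 1 gene for 13513 of the 22746 tested probe sets, several for 503 and none for 8730. Only those with 1 gene were named, and 13436 of them matched the table. No genome build is named for the values, so no coordinates are given.

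All 8 arrays entered 1 linear model, with a mean for each group, in limma 3.58.1 (lmFit, eBayes) and R 4.3.3, with two-sided tests and Benjamini-Hochberg adjustment over all probe sets. The 6 comparisons share arrays. Replicate numbers could not be tested for pairing, because their difference had been removed from the values. The block fit leaves 3 residual degrees of freedom. Alternatives were this block, median centring of arrays, cyclic loess, only the groups compared, an intensity trend, probe sets above the median level, and each array left out. The model was tested on simulated data with independent noise on each array. The simulation did not take out a replicate difference as the deposited values do, so it cannot show how far the p-values are too small. The 3 genes and the pathway lists were chosen with earlier results of these data known. All measured list genes are named, a gene with several probe sets by the brightest, and the 5 most alike genes by the rule given with them.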

Additional observations from a re-analysis of the deposited data

How the results depend on the processing

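The limits are 2 arrays per group, a replicate difference already removed from the values, and 16 of 105 list genes measured by name. Of 102 fits of the 3 genes under the planned settings other than leaving out an array, 99 kept direction and call. The exceptions were the replicate block for UGT74B1 (mean response 0.451, limma adjusted p 0.0538, and systemic leaves −0.763, 0.0792) and the dTLec1-1 groups alone for BCAT4 (0.927, 0.044). The replicate block changed no other call of the 3 genes. For the other pathway genes, 115 of 130 such fits kept direction and call. Between genotypes in systemic leaves AOP1 kept its call in 2 of 6 settings. It did not pass with median centring (limma adjusted p 0.0514), cyclic loess (0.0524), the intensity trend (0.0512) or the replicate block (0.107). In the wild type AT2G31790 kept its call in 3 of 6 (0.0578 with only the groups compared), and AT1G22410 in 4 of 6. GTR2 passed there with cyclic loess (limma adjusted p 0.0477). Of the 16 pathway genes, the number past the threshold between genotypes in systemic leaves was 4 (5.53% of all probe sets), but 1 with the replicate block (0.936%) and 2 with the intensity trend (4.04%), and it was 6 with only the groups compared (5.28%) and 5 with probe sets above the median level (8.86%). For the dTLec1-1 response it was 0 (0.668%), but 2 with its own groups alone (1.42%). Cyclic loess turned 2 wild-type values near 0 positive, MYC3 (0.032) and AT5G48220 (0.018).

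With each array left out in turn, the wild-type log2 response ran from 0.645 to 1.023 for UGT74B1, from 1.005 to 1.33 for AT2G04400, from 0.883 to 1.393 for BCAT4, from −0.106 to 0.147 for AOP3, from −0.239 to 0.18 for MYC3 and from −0.393 to 0.317 for AT5G48220. The dTLec1-1 response ran from 0.7 to 1.154 for BCAT4 and from −0.274 to 0.048 for AT2G31790, and the difference of the responses from −0.466 to 0.044 for BCAT4. The mean response of UGT74B1 ran from 0.357 to 0.546. Between genotypes the control leaf difference ran from −0.141 to 0.146 for UGT74B1 and from −0.154 to 0.17 for AT2G04400, and the systemic leaf difference from −0.952 to −0.574 for UGT74B1 and from −0.975 to −0.521 for BCAT4. The number of the 16 genes past the threshold ran from 2 (without wild-type systemic replicate 2) to 8 for the wild-type response, from 0 to 2 (without either wild-type control array) for the dTLec1-1 response, from 5 to 10 for the mean response and from 0 to 7 between genotypes in systemic leaves. Over the same fits the share of all probe sets that passed ran from 3.54% (without wild-type systemic replicate 2) to 11.4%, from 0% to 1.71%, from 6.93% to 15.7% and from 0.0132% to 6.89%. A group left with 1 array is assumed to vary like the others.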
